A study of Pan troglodytes with 38 samples.

Results

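The 10 genes described here form a group of early cytokine and NF-kB response genes: IL6, CCL2, CXCL2, SOCS3, NFKBIA, NFKBIZ, TNFAIP3, ICAM1, VCAM1 and SELE. They were taken by gene symbol from the 31373 annotated chimpanzee genes of a table of read counts, each symbol matched 1 row, and all 10 passed the filter on low counts. Levels are given as CPM, a gene's count per 1000000 counts of the animal's total on exons orthologous between human and chimpanzee.

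NF-kB is a transcription factor held inactive in the cytoplasm by inhibitor proteins and released when a cell meets bacterial products, tumour necrosis factor or interleukin-1. Once in the nucleus it switches on cytokines, chemokines and adhesion molecules, and also its own inhibitors, which end the response. In the heart, endothelial cells, fibroblasts, resident macrophages and cardiomyocytes can all mount it, and interleukin-6 in turn acts through STAT3, whose targets include SOCS3.

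The samples were post-mortem heart tissue of 38 captive-born chimpanzees, 1 polyA RNA-seq library an animal, in a single labelled group. The study's sample table notes 7 of them as positive for hepatitis B or C virus and 1 as exposed to HIV, all with RNA of 2018, and 30 carry no such note, among them 529, 570 and Little_R. RNA had been extracted in 2016 for 17 animals, in 4 batches, and in 2018 for 21 animals, in 1 batch. The 17 libraries of 2016 had been made for an earlier study. The paper states that libraries described earlier were sequenced again, fewer than these 17, and does not say which. Of the animals, 16 were male and 22 female. RNA quality, scored as RIN (lower in degraded RNA), lay between 2.5 and 8.4. Animals came from 5 centers, 21 of them from Yerkes, and some are related, so the animals are not fully independent.

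Totals on orthologous exons lay between 14408012 and 81603350 an animal. No library repeated another: the most alike pair had r = 0.9785 over genes and differed by 216 times the counting noise (chi-square per degree of freedom). The cardiac muscle genes MYH7 and TNNT2 were abundant, with medians of 32998.9 and 13546.8 CPM, although MYH7 was at 652 CPM in animal 549. The endothelial genes PECAM1 and CDH5 had medians of 217 and 113 CPM. Of the libraries that stood apart from the rest, Little_R had a median correlation of 0.775 with the other animals, 537 of 0.83 and 529 of 0.859, where the middle animal had 0.945. Animals 529, 570 and Little_R stood apart in the response genes themselves, and the tests below are therefore also given without those 3, a choice made after seeing the data.

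IL6, a cytokine that drives the acute phase response, had the widest range of the 10 genes. It lay between 0.0624 and 161 CPM with a median of 0.505 CPM. Animal 570 had 161 CPM, 529 had 83.3 CPM and Little_R had 61.0 CPM, and the next animal, 495, had 4.97 CPM. Thus 3 hearts were far above all others and the remaining 35 shared a low range. At that low range counting error matters: 20 of the 38 libraries had fewer than 20 IL6 counts, and the lowest value, from 3 counts, had an exact 95% Poisson interval of 0.0129 to 0.182 CPM, which covers counting error only.

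CCL2, the chemokine that attracts monocytes, lay between 5.03 and 835 CPM with a median of 12.3 CPM. The highest was 529, followed by Little_R at 470.4 CPM, 570 at 319 CPM and 4x0025 at 140.3 CPM. CXCL2, a chemokine that attracts neutrophils, lay between 2.84 and 464 CPM with a median of 8.83 CPM. Its highest animal was again 529, but 558 came next at 148 CPM, ahead of Little_R at 126 CPM and 570 at 96.9 CPM. CXCL2 has close paralogs, CXCL1 and CXCL3. The counting mode the authors used, GeneCounts of STAR, takes reads that map to 1 place, so reads that fit a paralog equally well are missing from its level.

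Among the genes that restrain or otherwise regulate the response, SOCS3, the inhibitor of signalling by interleukin-6 receptors, had the widest range. It lay between 0.499 and 331 CPM with a median of 6.21 CPM, highest in Little_R, then 156 CPM in 529 and 96.8 CPM in 570. NFKBIA, which encodes the inhibitor that holds NF-kB in the cytoplasm, had the narrowest range of the 10 genes, from 33.7 to 467 CPM with a median of 73.9 CPM. Its highest animal stood 13.8 times above its lowest, where that ratio was 2580 for IL6. NFKBIZ, a nuclear regulator that NF-kB needs to activate some of its later targets, lay between 4.12 and 216 CPM with a median of 11.4 CPM. TNFAIP3, the enzyme A20 that edits ubiquitin on signalling proteins upstream of NF-kB, lay between 5.404 and 138 CPM with a median of 11.2 CPM. Animal 529 was highest for NFKBIA, NFKBIZ and TNFAIP3 alike, whereas Little_R was second for NFKBIZ at 194 CPM and outside the 5 highest for NFKBIA.

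The adhesion molecules bind leukocytes to the vessel wall. ICAM1, a ligand of leukocyte integrins, lay between 7.78 and 323 CPM with a median of 19.5 CPM, highest in Little_R, then 275 CPM in 529 and 175 CPM in 570. SELE, the endothelial selectin on which leukocytes roll, lay between 0.291 and 55.6 CPM with a median of 2.29 CPM, highest in 570, then 25.7 CPM in 529 and 16.2 CPM in Little_R. VCAM1, which binds lymphocytes and monocytes through integrin alpha-4, lay between 4.78 and 78.8 CPM with a median of 12.2 CPM, and its order was different. Animals 570, 558 (77.7 CPM) and 529 (70.1 CPM) were highest, while Little_R, at rank 27 of 38 animals, lay below the median.

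**Figure D1:**
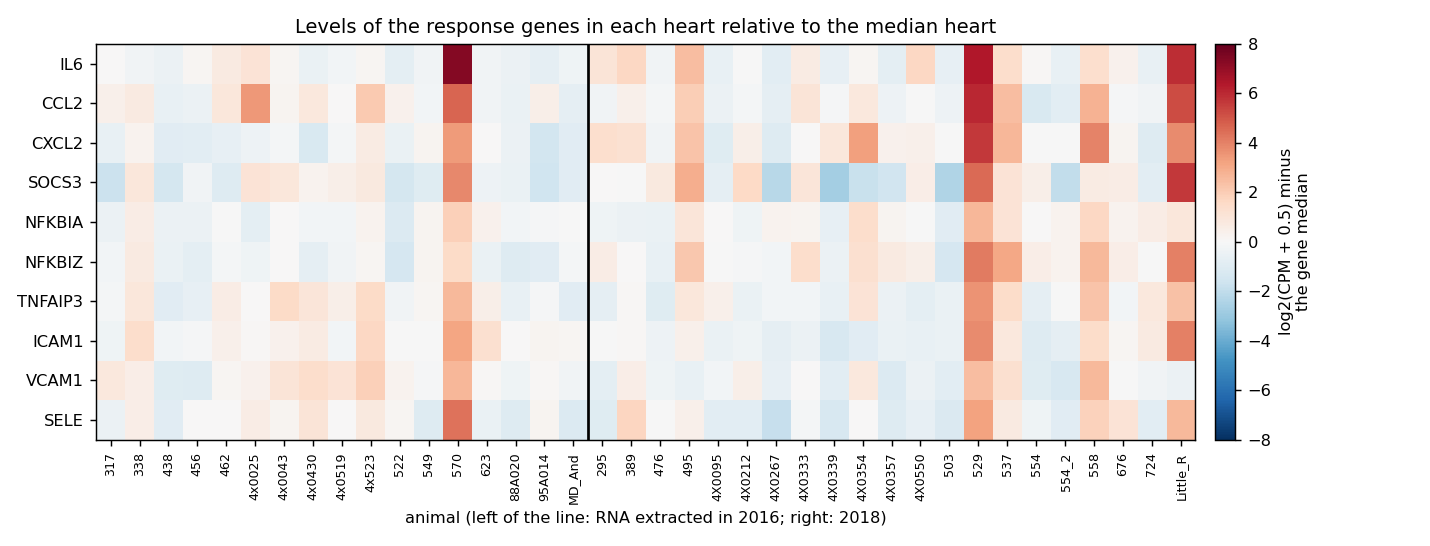
Each row is 1 of the 10 response genes and each column 1 of 38 hearts, with RNA of 2016 left of the line and RNA of 2018 right of it; colour is log2(CPM + 0.5) minus the median of the gene. Columns 570, 529 and Little_R are red for most genes, while Little_R, at rank 27 of 38 animals for VCAM1, is close to the median there.

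VCAM1 and SELE could also be matched in the table of orthologous exons, which gives a length and so a level that can be compared between genes. The orthologous exons of VCAM1 span chr1:101362614-101379882 on the plus strand of Pan_tro_3.0 and add up to 5759 bases, and those of SELE span chr1:147989245-148030714 on the minus strand and add up to 4320 bases. Per kilobase of exon, VCAM1 had a median of 2.23 CPM (range 0.966 to 14.6) and SELE a median of 0.528 CPM (range 0.0674 to 12.96). The log2 CPM of the 2 tables had r = 0.999 across the 38 animals for VCAM1 and r = 1.0 for SELE.

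High levels were shared between genes within an animal. Animal 529 was among the 5 highest for all 10 genes, 570 for 9, and Little_R and 558 for 8 each. Another 8 animals were among the 5 highest for at least 1 gene, since 12 animals were in all, and 26 animals were in none. In 5 animals all 10 genes lay above their medians, and in 2 animals none did. The median of the 10 deviations from the gene medians was 3.98 on the log2 scale in 529, 3.89 in Little_R, 3.26 in 570 and 2.06 in 558, and 1.48 or less in the other animals.

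The 3 hearts that stood apart differed from each other in what else was high. Animal 529 was a male with a RIN of 5.0, 570 a female with a RIN of 7.1, and Little_R a female with a RIN of 7.8. Mitochondrial genes took 52.7% of the gene counts in 529 and 48.35% in Little_R, ranks 3 and 5 of the 38 hearts, but 23.86% in 570, at rank 34. Little_R had the lowest orthologous exon total. Cardiomyocyte markers (10 genes) summed to 14590 CPM in Little_R, the lowest of the 38 hearts, to 57960 CPM in 529 and to 66070 CPM in 570, where the median heart had 94320 CPM. Fibroblast markers (9 genes) summed to 12230 CPM in Little_R, 7720 CPM in 529 and 1933 CPM in 570, against a median of 1993 CPM. Endothelial markers (11 genes) summed to 5249 CPM in Little_R, 1485 CPM in 529 and 1632 CPM in 570, the last pair near the median of 1670 CPM, whereas the 4 venous endothelial markers were above their median of 85.0 CPM in all 3, at 338.9, 257 and 292 CPM in the same order. Neutrophil markers (11 genes) summed to 353, 198 and 135 CPM in 529, 570 and Little_R against a median of 50.9 CPM. T and NK cell markers (10 genes) summed to 425 CPM in 529 but to 17.02 and 10.6 CPM in 570 and Little_R. Their median was 34.22 CPM. Monocyte and macrophage markers (12 genes) were below their median of 154.3 CPM in 529, at 100.1 CPM. They were above it in 570 and Little_R, at 257.1 and 174.6 CPM. B and plasma cell markers (6 genes) summed to 840, 8.62 and 61.7 CPM in 529, 570 and Little_R against a median of 21.03 CPM. In bulk tissue, more cells of a type and more RNA of a gene per cell cannot be told apart, and the part of these markers in the levels of the response genes was not tested.

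**Figure D2:**
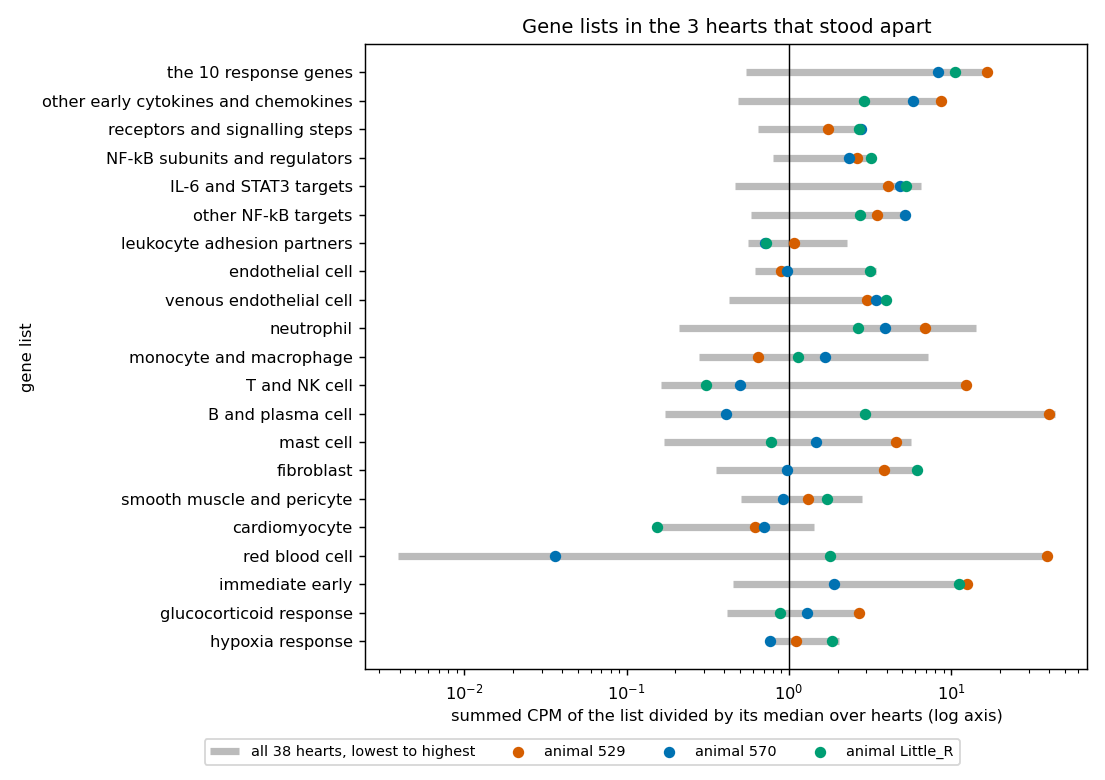
Each row is a gene list; the bar runs from the lowest to the highest summed CPM over 38 hearts divided by the median (log axis), and the coloured points are animals 529, 570 and Little_R. All 3 points lie well above 1 for the 10 response genes, while Little_R lies at the low end for cardiomyocyte markers and 529 at the high end for red blood cell markers.

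The levels of the 10 genes varied together across animals. Over the 45 pairs, Pearson's r of log2 CPM lay between 0.393 (NFKBIZ and VCAM1) and 0.869 (CXCL2 and NFKBIZ) with a median of 0.733, and all 45 pairs were positive. A two-sided permutation test of r gave p under 0.05 for 45 pairs, the largest p being 0.0141. Over all pairs of the 15790 genes tested the median r was 0.068, and 17.3% of them had an r of 0.393 or more. The same test of Spearman's rho, whose median was 0.509, passed for 41 pairs, of which the lowest had a rho of 0.321, a value that 20.2% of all pairs reached. The 4 pairs that did not were those of CXCL2 or NFKBIZ with ICAM1 or VCAM1. Leaving out the 2 animals farthest from the median of the first gene gave r between 0.089 (IL6 and VCAM1) and 0.805 (IL6 and SOCS3). For IL6 and VCAM1, all 38 animals gave r = 0.467 and rho = 0.385 (permutation p = 0.0187 for rho). Those left out were 570 and 529, while Little_R, high for IL6 and below the median for VCAM1, stayed in. Without 529, 570 and Little_R r was 0.254 (permutation p = 0.141) and rho 0.33 (p = 0.0535). Within RNA of 2018 this pair had r = 0.472, and 0.432 without 529 and Little_R. Within RNA of 2016 it had 0.592, and 0.119 without 570. Over all 45 pairs, r lay between 0.487 and 0.892 within RNA of 2016, and between 0.403 and 0.918 within RNA of 2018.

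Within the group, the highest r was that of CXCL2 with the regulator NFKBIZ. These had r = 0.869 and rho = 0.753 (two-sided permutation test, p = 1e-05 for both, the smallest that 100000 permutations can give), r = 0.804 without the 2 farthest animals, and r = 0.821 and 0.852 within RNA of 2016 and of 2018. NFKBIA and NFKBIZ had r = 0.829 and rho = 0.777 (permutation p = 1e-05 for both), r = 0.788 without the 2 farthest, and 0.85 and 0.845 within the years. IL6 was closest to CCL2, with r = 0.861 and rho = 0.634 (permutation p = 1e-05 and 5e-05), and next to SOCS3, with r = 0.839 and rho = 0.745. SELE was closest to CCL2, with r = 0.849 and rho = 0.808 (permutation p = 1e-05 for both). VCAM1 had the lowest median r with its 9 partners, 0.562, and was closest to TNFAIP3, with r = 0.765 and rho = 0.70 (permutation p = 1e-05 for both).

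Without 529, 570 and Little_R the relations were weaker. The median r over the 45 pairs fell to 0.505 in the 35 remaining animals, with all 45 still positive, and 34 pairs passed the permutation test of r and 28 that of rho. The lowest r that passed was 0.363 and the lowest rho 0.34, which 20.6% and 18.7% of all gene pairs reached. Of the pairs described above, CXCL2 and NFKBIZ went from 0.869 to 0.786, NFKBIA and NFKBIZ from 0.829 to 0.813 and TNFAIP3 and VCAM1 from 0.765 to 0.776 (permutation p = 1e-05 each). Others fell further, CCL2 and SELE from 0.849 to 0.681 and IL6 and SOCS3 from 0.839 to 0.662 (permutation p = 3e-05 each). The weakest was CXCL2 and ICAM1, whose r went from 0.626 to 0.171 (permutation p = 0.325) and whose rho was 0.0188 (p = 0.914). IL6 and CCL2 went from 0.861 to 0.595 (permutation p = 0.00033). Without the 3 animals, the RNA of 2016 had 42 of 45 pairs above 0 and a median of 0.472, and the RNA of 2018 had 45 and a median of 0.635.

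**Figure D3:**
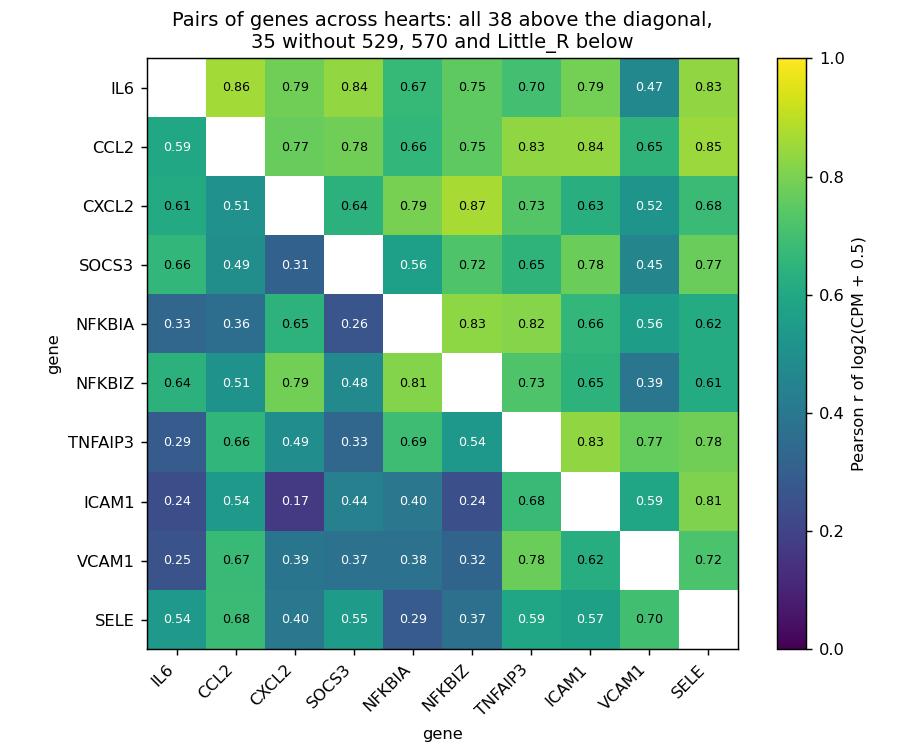
Each cell gives Pearson's r of log2(CPM + 0.5) for a pair of response genes, over all 38 hearts above the diagonal and over 35 hearts without 529, 570 and Little_R below it. Values below the diagonal are mostly smaller, and those among CXCL2, NFKBIA and NFKBIZ stay at 0.648 or more.

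Which genes of the whole table varied with each of the 10 was tested with limma, with extraction year as a covariate and Benjamini-Hochberg adjustment over 15789 genes. Each of the 10 genes had all 9 others among the genes that rose with it, and the largest adjusted p among these was 0.0124 (SOCS3 with VCAM1 as the term). The share of all genes that rose with a member was large, however: 20.1% for IL6, 33.9% for CCL2, 32.9% for CXCL2, 22.7% for SOCS3, 33% for NFKBIA, 40.2% for NFKBIZ, 36.9% for TNFAIP3, 23.1% for ICAM1, 18.8% for VCAM1 and 21.3% for SELE. The shares depended on the library sizes. With TMM they were 13% for IL6, 14.7% for SOCS3, 15.4% for NFKBIA, 23% for TNFAIP3, 14.4% for ICAM1, 5.08% for VCAM1 and 10.3% for SELE, and all 9 others still rose with each gene except VCAM1, with which 8 rose. Without the 3 animals, 9 of 9 others remained called for CCL2 and NFKBIZ, against 36.9% and 43.6% of all genes. For IL6 5 of 9 were called (7.53% of all genes), for SOCS3 5 (6.78%), for NFKBIA 6 (37.7%), for SELE 6 (1.36%), for ICAM1 7 (5.79%), for TNFAIP3 7 (38.7%), for CXCL2 8 (33.9%) and for VCAM1 8 (23.4%).

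Other genes of the pathway were read from lists in the same fits, where 20.1% of all genes rose with IL6. Of 12 tested early cytokines and chemokines outside the 10, 8 rose with IL6, among them PTX3, a soluble pattern recognition protein, with a partial r of 0.807 (limma adjusted p = 1.91e-07) and LIF, a cytokine of the IL-6 family, with 0.743 (adjusted p = 5.12e-06). Of 24 receptors and signalling steps 14 rose with IL6, led by TNFRSF1A, a receptor of tumour necrosis factor (partial r 0.819, limma adjusted p = 1.16e-07), and IL1R1, the interleukin-1 receptor (0.809, adjusted p = 1.91e-07). Of 19 NF-kB subunits and regulators 16 rose with IL6, led by BCL3, a nuclear partner of NF-kB (partial r 0.85, limma adjusted p = 1.28e-08). Of 14 targets of IL-6 and STAT3 13 rose, led by MYC (0.825, adjusted p = 5.99e-08), and of 15 other NF-kB targets 12 rose, led by GADD45B (0.794, adjusted p = 4.3e-07). Without the 3 animals the counts with IL6 were 3, 5, 7, 10 and 6 of the same lists, against 7.53% of all genes. PTX3, LIF, TNFRSF1A, IL1R1, BCL3, MYC and GADD45B were then still called, with partial r between 0.623 and 0.732. A further list, leukocyte adhesion partners, differed: 2 of 10 rose with IL6, close to the 20.1% of all genes. Leaving out the 3 animals, 1 of those 10 rose, against 7.53%.

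Lists of cell types and of other responses were read in the same way. Immediate early genes, which respond within minutes to many stimuli, rose with IL6 in 11 of 11 cases, where 20.1% of all genes rose. They were led by ZFP36, which destabilizes cytokine mRNA (partial r 0.81, limma adjusted p = 1.68e-07). Without the 3 animals 8 of 11 rose, against 7.53% of all genes. Cardiomyocyte markers went the other way. Of 10 tested, 7 fell with IL6 (10% of all genes fell), 9 with SOCS3 (10.3%) and ICAM1 (12.1%), and 7 with SELE (8.14%). For CCL2 (15.7%), CXCL2 (15.4%), NFKBIZ (16.8%) and TNFAIP3 (12.9%) 8 fell, for NFKBIA 7 (9.39%) and for VCAM1 1 (2.36%). In the 35 animals other than 529, 570 and Little_R, fewer were called for some genes, as were fewer of all genes. Then 1 of 10 fell with SOCS3 (1.32% of all genes) and ICAM1 (0.798%), 0 with SELE (0.405%) and 3 with IL6 (1.9%) and VCAM1 (4.61%). The counts were then 8 for NFKBIZ (11.6%), 7 for CCL2 (11.1%), CXCL2 (13.6%) and TNFAIP3 (8.32%), and 6 for NFKBIA (8.56%). The median partial r of the 10 markers moved less, from -0.522 to -0.346 for SOCS3, from -0.515 to -0.402 for ICAM1, from -0.456 to -0.37 for SELE and from -0.466 to -0.407 for IL6. MYBPC3, a protein of the thick filament, had a partial r of -0.676 with IL6 (limma adjusted p = 0.000272), and of -0.644 without the 3 animals (adjusted p = 0.0132). Fibroblast markers rose with IL6 and with SOCS3 in 6 of 9 cases and with NFKBIZ in 9 of 9, where 20.1%, 22.7% and 40.2% of all genes rose. Leaving out the 3 animals, they rose in 5, 0 and 8 cases, against 7.53%, 6.78% and 43.6% of all genes. The part of the makeup of the tissue in these relations was not tested.

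The lymphocyte markers differed between the response genes in these counts. Of 10 tested T and NK cell markers, 10 rose with VCAM1 and 9 with TNFAIP3, 5 with CCL2, 4 with CXCL2 and NFKBIA, 3 with NFKBIZ, 1 with SOCS3 and SELE, and 0 with IL6 and ICAM1. Of all genes, 18.8% rose with VCAM1, 36.9% with TNFAIP3, 33.9% with CCL2, 32.9% with CXCL2, 33% with NFKBIA and 40.2% with NFKBIZ. The share was 22.7% with SOCS3, 21.3% with SELE, 20.1% with IL6 and 23.1% with ICAM1. NKG7, of cytotoxic lymphocytes, had a partial r of 0.653 with VCAM1 (limma adjusted p = 0.000662), and of 0.673 without the 3 animals (adjusted p = 0.000571). Without those animals the counts were 10 for VCAM1 (23.4% of all genes) and TNFAIP3 (38.7%), and 7 for CCL2 (36.9%). They were 3 for CXCL2 (33.9%), 1 for NFKBIA (37.7%) and 0 for NFKBIZ (43.6%). For IL6 (7.53%), ICAM1 (5.79%), SOCS3 (6.78%) and SELE (1.36%) the count was 0 too. Of 12 tested monocyte and macrophage markers, 0 to 4 rose with a response gene in all animals, where 18.8% to 40.2% of all genes rose. In the other 35 animals 8 rose with TNFAIP3 (38.7%) and ICAM1 (5.79%), and 7 with VCAM1 (23.4%), CCL2 (36.9%) and NFKBIA (37.7%). Then 6 rose with NFKBIZ (43.6%), 3 with SOCS3 (6.78%), 1 with CXCL2 (33.9%) and 0 with IL6 (7.53%) and SELE (1.36%). Pan-endothelial markers (11 tested) rose with VCAM1 in 0 cases (18.8% of all genes), with NFKBIZ in 10 (40.2%) and with the other 8 genes in 2 to 8. In the other 35 animals they rose with VCAM1 in 5 (23.4%), with NFKBIZ in 11 (43.6%) and with the other 8 genes in 0 to 10. Venous endothelial markers rose in 4 of 4 cases with IL6, NFKBIZ, TNFAIP3 and VCAM1, with and without those animals. With CCL2, CXCL2 and NFKBIA 4 rose in all animals and 3 in the other 35. With SOCS3, ICAM1 and SELE 3 rose in all animals and 1 in the other 35. The shares of all genes lay between 18.8% and 40.2%, and between 1.36% and 43.6% in the other 35. Whether these counts differ between response genes was not itself tested.

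The genes outside the 10 whose log2 CPM followed a response gene most closely were ranked by Pearson's r over 38 animals among 14403 genes with a symbol, with no test. For IL6 they were GRM2 (r = 0.91), ETS2 (0.885), BCL3 (0.853), MIDN (0.85) and SLC25A25 (0.847). For NFKBIA they were SEMA3F (0.84), CD40 (0.832), GCH1 (0.831), EZH2 (0.83) and SPAG9 (0.827). For ICAM1 they were RELB (0.863), GPR84 (0.852), CSF2RB (0.841), TRIB3 (0.824) and NFKBIE (0.821). The list for VCAM1 held the interferon-induced chemokines CXCL10 (0.829) and CXCL11 (0.775), with IL7 (0.792), IL1B (0.762) and STK17B (0.745), and that for SELE held RGS16 (0.866), BCL3 (0.812), RELB (0.799), ACKR1 (0.792) and ETS2 (0.792). GRM2, GPR84 and TRIB3 were scarce, with medians of 0.289, 0.157 and 0.364 CPM. Leaving out the 3 animals gave r between 0.692 and 0.721 for the 5 genes of IL6, 0.713 and 0.834 for those of NFKBIA, 0.528 and 0.726 for those of ICAM1, 0.654 and 0.831 for those of VCAM1, and 0.501 and 0.835 for those of SELE.

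RNA of 2018 was compared with RNA of 2016 to ask whether the batch of extraction moved these genes, with edgeR's quasi-likelihood test and sex as a covariate. NFKBIZ and CXCL2 were higher in 2018, 2 of the 10 genes, where 16.1% of all 15790 genes were called in either direction, 11.2% higher and 4.82% lower. NFKBIZ lay between 4.15 and 34.3 CPM in 2016 (median 9.27 CPM, n = 17) and between 4.12 and 216 CPM in 2018 (median 16.8 CPM, n = 21). The ranges overlapped widely, and the log2 fold change was 1.80 (SE 0.42, edgeR adjusted p = 0.00286). CXCL2 lay between 2.84 and 96.9 CPM in 2016 (median 6.34 CPM) and between 4.09 and 464 CPM in 2018 (median 12.05 CPM), with a log2 fold change of 1.82 (SE 0.62, edgeR adjusted p = 0.0381). SOCS3 did not pass, at 1.62 (SE 0.72, edgeR adjusted p = 0.117), nor did IL6 at 0.29 (SE 1.40, adjusted p = 0.91) or VCAM1 at -0.42 (SE 0.34, adjusted p = 0.42).

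The call of NFKBIZ was kept when single animals were left out but not in every alternative, and that of CXCL2 lay near the threshold. NFKBIZ stayed called when any 1 of the 38 animals was left out, with adjusted p between 0.00097 and 0.012, and without the 3 animals that stood apart, with a log2 fold change of 1.22 (edgeR adjusted p = 0.00369). CXCL2 lost its call when any of 317, 456, 462, 4x0519, 529, 558, 623, 88A020, 95A014, Little_R or MD_And was left out. In these 11 cases its log2 fold change was 1.37 to 1.80 and its adjusted p 0.0504 to 0.103. It kept the call without the 3 animals (1.77, edgeR adjusted p = 0.0022), where 14.7% of all genes were called. With limma-voom neither gene was called (adjusted p = 0.0649 for NFKBIZ and 0.0733 for CXCL2). Neither was called in Yerkes animals alone, with NFKBIZ at 1.39 (edgeR adjusted p = 0.252) and CXCL2 at 1.52 (adjusted p = 0.459). Without 570, IL6 (3.84, edgeR adjusted p = 0.00302), SOCS3 (2.31, adjusted p = 0.0187) and NFKBIA (0.64, adjusted p = 0.0395) passed too, and without the 3 animals IL6 was at 0.82 (adjusted p = 0.277). Of the lists, 9 of 12 tested monocyte and macrophage markers were lower in 2018, where 4.82% of all genes were. So were 4 of 10 leukocyte adhesion partners and 3 of 10 neutrophil markers. Of 11 immediate early genes 3 were higher, where 11.2% of all genes were. The part of these lists in the result was not tested. Without the 8 animals with a virus note, left out after seeing the data, NFKBIZ (2.30, edgeR adjusted p = 0.00123), CXCL2 (2.52, adjusted p = 0.0116) and SOCS3 (2.31, adjusted p = 0.0357) were called. Shares of all genes called were not taken with limma-voom, in Yerkes animals, without those 8 or with 1 animal left out. The year cannot be told apart from the earlier study in which the libraries of 2016 were made.

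**Figure D4:**
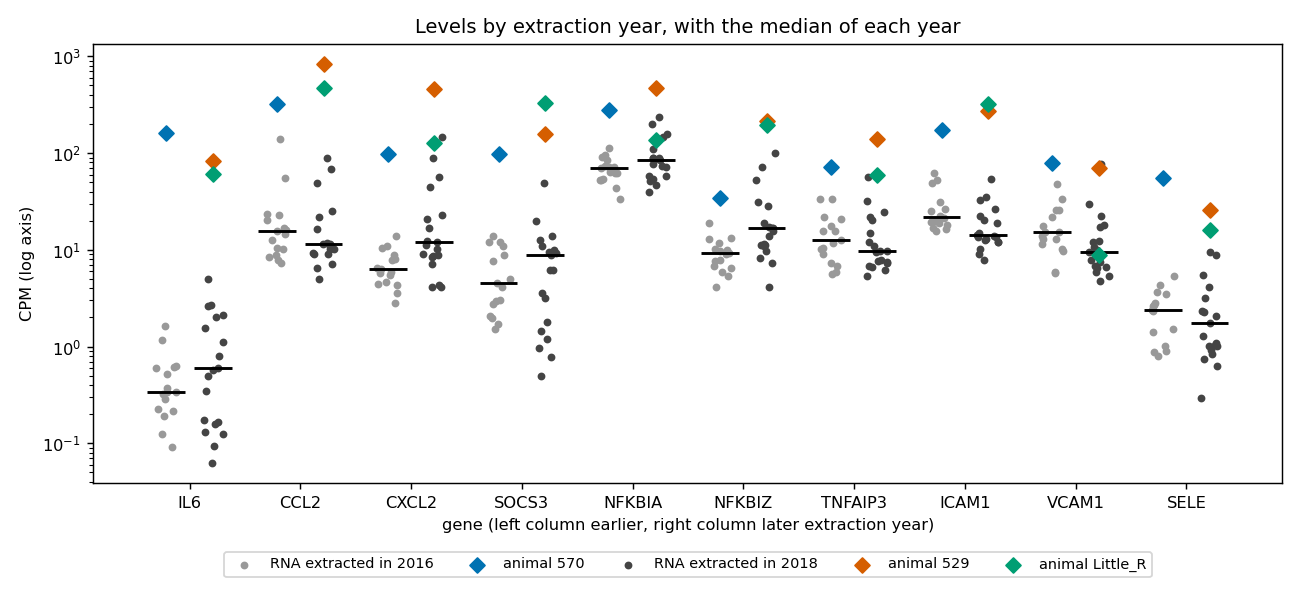
CPM (log axis) of each response gene in each heart, with RNA of 2016 in the left column and RNA of 2018 in the right column of each gene; lines are medians of the year and diamonds mark 529, 570 and Little_R. The years overlap for every gene, and the median of NFKBIZ is 9.27 CPM in 2016 and 16.8 CPM in 2018.

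Sex and RNA quality were compared in the same way. Between males and females, edgeR's test called 0 of the 10 genes and 0.215% of all genes (0.158% higher in males and 0.057% lower). None of the 10 had an unadjusted p under 0.05, and DESeq2 called 0 as well. The log2 difference of males minus females was between -0.87 (SOCS3, SE 0.71) and 0.58 (CXCL2, SE 0.60). For RIN, with year and sex as covariates, no gene of the 16462 tested was called by edgeR (0% of genes), and 0 of the 10 were. All 10 slopes were positive, from 0.06 log2 units per unit of RIN for NFKBIA (SE 0.08) to 1.19 for IL6 (SE 0.55, edgeR adjusted p = 0.336), with a median of 0.36. The median over all genes tested was 0.0059. Because the 10 genes varied together, their signs are not independent. Unadjusted p of edgeR's test was under 0.05 for 3 of the 10, ICAM1, NFKBIZ and IL6, and for 2276 of all 16462 genes. DESeq2 called 1 of the 10, IL6, and its count over all genes was not taken. Without the 3 animals that stood apart, edgeR called 0 of the 10 by sex and 0 by RIN.

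Variability was described by dispersion, the distance of a gene's ln overdispersion (how far counts spread between animals beyond counting error) from the trend on mean expression over the 13121 genes that reached 6 CPM in 1 or more animals. It was above 0 for all 10 genes, where 44.4% of all genes were above 0, and its median was 2.23 against -0.13 over all genes. CCL2 had the highest value, 2.96 (SE 0.377), at rank 51, followed by IL6 at 2.93 (SE 0.848), SOCS3 at 2.79 (SE 0.484) and CXCL2 at 2.73 (SE 0.376). NFKBIA had the lowest, 1.31 (SE 0.336), at rank 1103. IL6 reached 6 CPM in 3 of 38 animals, which were 529, 570 and Little_R, and SELE in 5. Because IL6 passed the filter through its 3 highest animals alone, a high dispersion was built into its selection. Its value and rank therefore say little about its variability.

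Dispersion was lower without the 3 hearts that stood apart. IL6 then no longer reached 6 CPM in any animal, and the median dispersion of the other 9 genes was 1.33, still above 0 for all 9, with 44.6% of all genes above 0. The values were 2.15 for CXCL2, 1.92 for CCL2, 1.66 for NFKBIZ, 1.52 for SOCS3 and 1.33 for VCAM1, and 0.173 for SELE, which had 1.44 (SE 0.553) with all animals. The order of the genes changed as well, with CXCL2 above CCL2. VCAM1, at 1.48 (SE 0.284) with all animals, moved least.

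**Figure D5:**
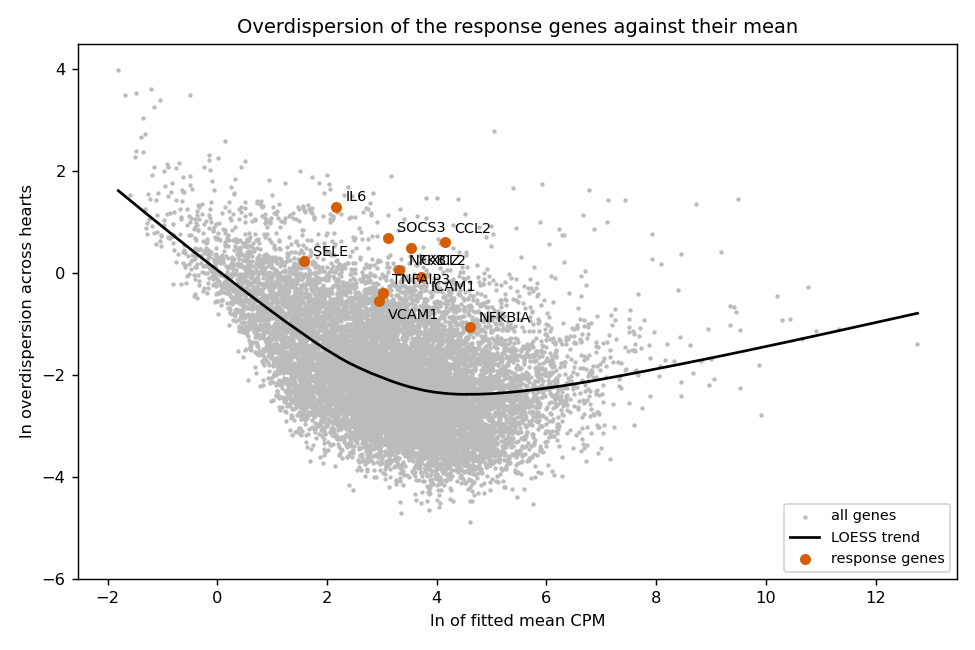
Each grey point is 1 of 13121 genes, with ln fitted mean CPM on the horizontal axis and ln overdispersion over 38 hearts on the vertical axis; the line is the LOESS trend. The 10 response genes (orange) all lie above the line, from NFKBIA, 1.31 above it, to CCL2, 2.96 above it.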

How the data were processed

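Trizol or kit RNA of frozen hearts was made into polyA libraries with the TruSeq v2 kit, which does not mark strand, and the authors aligned reads with STAR 2.6.1b to Pan_tro_3.0. The deposited gene table holds a count per annotated gene that the authors made with STAR's GeneCounts mode (31373 genes, 18040 with a symbol). The deposited orthologous exon table holds the count the authors made with featureCounts 1.6.3 (44125 genes), and its totals are the library sizes used here. The deposited normalized matrix holds a score that the authors made by standardizing log CPM and quantile normalizing it (13545 genes, 37 animals, 9 of the 10 genes). It was used only as an alternative for the pairs. In all, 52 columns of per-sample values, with all human libraries, were not used, so species were not compared.

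Extraction year, sex, RIN, center and virus notes came from the study's sample table. Each library was taken as 1 animal. Tests were edgeR 4.0.16 (quasi-likelihood, TMM, filterByExpr; SE is the log2 fold change divided by the root of F) and limma 3.58.1 (trend) on log2(CPM + 0.5), which understates changes of low genes, with Benjamini-Hochberg adjustment over all genes and a threshold of 0.05. Permutation tests used 100000 resamples. Overdispersion was the negative binomial maximum likelihood estimate, the trend a LOESS of degree 1 and span 0.75, and its SE the SD over 1000 draws of animals with replacement. The steps were tested on simulated data.

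The 10 genes, the 20 lists and the tests were chosen with earlier results of these data known. Named are the 10 genes, at most 4 genes a list with the smallest p, the 5 genes most like each of 5 response genes, and 4 genes for the tissue check. Alternatives were other library sizes, DESeq2, limma-voom, no filter, a pseudocount of 2, a span of 0.3, another filter, RIN as a covariate, each year alone, Yerkes animals alone, and leaving out animals.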

Additional observations from a re-analysis of the deposited data

How the results depend on the processing

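By extraction year, 2 genes were called with all animals (16.1% of all genes), 0 with limma-voom, 0 in Yerkes animals and 1 without 537 and Little_R. Leaving out 1 animal at a time gave 1 to 5 calls. The share of all genes called was not taken in these alternatives, so their counts cannot be set against it. By RIN, 0 were called except with DESeq2 (1). The sign of uncalled year changes turned in these cases. IL6 was at -2.47 without 537 and Little_R and -3.52 in Yerkes animals. CCL2 was at -0.36 with DESeq2, -0.17 with limma-voom, -0.10 without 537 and Little_R, -0.14 in Yerkes animals and -0.34 without 529, 570 and Little_R. TNFAIP3 was at -0.19 with DESeq2, -0.21 with limma-voom and -0.14 without the 3 animals. ICAM1 was at -0.50 with limma-voom, -0.35 without 537 and Little_R and -0.29 in Yerkes animals. Without the 3 animals ICAM1 was at -0.62, with an adjusted p just over the threshold (edgeR adjusted p = 0.0517). VCAM1 was at 0.053 in Yerkes animals, and SELE at 0.33 with DESeq2, 0.014 without the 3 animals, 0.0036 with RIN as a covariate and 0.54 without the 8 animals with a virus note.

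The sign of uncalled sex differences turned as follows. IL6 was at 0.72 with DESeq2, 0.68 with limma-voom, 2.03 without 537 and Little_R, 2.86 in Yerkes animals, 0.76 without the 3 animals and 1.49 with RIN as a covariate. CCL2 was at -0.022 with the orthologous exon total as library size, -0.033 with DESeq2, -0.055 without the 3 animals and -0.38 without the 8. SOCS3 was at 0.46 without 537 and Little_R and 0.90 in Yerkes animals. TNFAIP3 was at -0.39 with DESeq2 and -0.021 without the 3 animals. ICAM1 was at 0.59 without 537 and Little_R, 0.64 in Yerkes animals, 0.031 without the 3 animals and 0.30 with RIN. VCAM1 was at -0.034 in Yerkes animals. For RIN, SOCS3 was at -0.044 in Yerkes animals.

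The number of genes rising with a response gene moved with TMM library sizes to 2046 for IL6, 2326 for SOCS3, 2439 for NFKBIA, 3627 for TNFAIP3, 2266 for ICAM1, 802 for VCAM1 and 1628 for SELE. Without 537 and Little_R it was 1842 for IL6, 2099 for SOCS3, 1746 for ICAM1 and 1943 for SELE, and without the 3 animals 1189, 1070, 914 and 214. The other response genes rising with IL6 and with SOCS3 were then 5 each. The median r of the pairs was 0.505 without the 3 animals and 0.539 in the normalized matrix.

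Dispersion without the 3 animals was 1.92 for CCL2, 2.15 for CXCL2, 1.52 for SOCS3, 0.931 for NFKBIA, 1.66 for NFKBIZ, 1.08 for TNFAIP3, 0.937 for ICAM1 and 0.173 for SELE. In RNA of 2016 it was 2.22 for CXCL2, 0.905 for NFKBIZ and 1.86 for VCAM1. Leaving out 1 animal at a time, it ranged from 2.25 to 2.75 for CXCL2, 2.3 to 2.82 for SOCS3, 0.947 to 1.34 for NFKBIA, 1.3 to 1.7 for TNFAIP3 and 0.825 to 1.47 for SELE. The cause of these changes was not tested. Depth limits IL6 most, with under 20 counts in 20 libraries. No paired analysis was possible because each animal gave 1 library in a single group. Leaving out animals 529, 570 and Little_R, or the 8 with a virus note, was chosen after seeing the data.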

Other observations

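Some hearts below the 3 highest were high in a part of the group. Animal 537 was at 101 CPM for NFKBIZ, rank 3 of all animals, and at 157 CPM for NFKBIA, rank 5, and had the highest mitochondrial share, 60.13%. Animal 495 had rank 4 for IL6 and for SOCS3 (48.8 CPM). Animal 4X0354 was among the 5 highest for CXCL2 (89.2 CPM) and NFKBIA (200.3 CPM), and among the 5 lowest for 2 of the 10 genes. Animal 4x523, with RNA of 2016, had rank 4 for ICAM1 (62.2 CPM) and VCAM1 (47.5 CPM). Animal 4x0025 had rank 4 for CCL2 and outside the 5 highest for the other 9 genes.

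The other stress lists were not used above. Glucocorticoid response genes rose with NFKBIA in 6 of 8 cases, where 33% of all genes rose, and with IL6 in 2, where 20.1% did. Without the 3 animals that stood apart the counts were 7 (37.7%) and 1 (7.53%). Hypoxia response genes rose with IL6 in 3 of 10 cases and fell in 2, close to the 20.1% and 10% of all genes, and without the 3 animals 2 rose (7.53%) and 0 fell (1.9%).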
